A study of Mus musculus with 3 samples.

Results

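One comparison of single RNA-seq libraries is described here across genes: C2C12 cells 1 h after washout of DAPT against the control library. The members are the deposited FPKM values (fragments scaled to transcript length and to the mapped total) of these 2 libraries, out of 3 libraries in the series, with rows of the same symbol summed. C2C12 is a mouse myoblast line, and the series title gives it a human NOTCH1 without the extracellular domain. All cultures grew in DMEM with 20% FBS, and the protocol shared by the libraries names culture in 10 uM DAPT, an inhibitor of gamma-secretase, removed for 1 h or 6 h in the samples of interest. The control is titled as having had no treatment; the labels do not say outright whether it stayed in DAPT, and the series table heads the washout columns "cont" without saying what that stands for. Every group had 1 library, so there is no replicate, no test and no p-value, and the interval beside a fold is built from how wide the deposited 95% bounds are, which covers error within a library only. The 6 h library is given beside the members for its level.

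Gamma-secretase cuts Notch within the membrane and frees its intracellular domain, which joins RBPJ on DNA and turns on repressor genes of the HES and HEY families. Immediate early genes such as Egr1, Fos and Nr4a1 are a separate class that cells switch on within minutes of serum, stretch or growth factor signals from factors already present, and many of their products shut the signal off again. NRF2, encoded by Nfe2l2, is a stress factor that KEAP1 holds low and that drives genes for glutathione, thioredoxin, NADPH and haem metabolism.

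The depth, estimated from the spacing of low values, was about 20400000 fragments at 1 h, beside 23000000 in the control and 20500000 at 6 h. A transcript of 1 kb with 3 fragments would have 0.147 FPKM at 1 h, 0.130 in the control and 0.146 at 6 h. The myoblast label was checked against markers. Des, the muscle intermediate filament gene, had 62.2 FPKM in the control against 73.3 at 1 h and 66.3 at 6 h, and Cdh15, which encodes M-cadherin, had 41.2 FPKM at 1 h beside 27.4 in the control and 86.97 at 6 h. In contrast Myod1, the defining myogenic factor gene of this line, was near 0, at 0.189, 0.295 and 0 FPKM in control, 1 h and 6 h, and Pax7 stood at 0.00958 FPKM in the control against 0.0109 at 1 h and 0 at 6 h. Of 13 endothelial and blood cell markers 0 reached a mean of 1 FPKM. Among the other-cell markers that did, Pdgfrb had 77.7 FPKM at 1 h beside 91.3 in the control and 136 at 6 h. In the epithelial and neural list 3 of 12 members passed the filters below, and the highest values were 185 FPKM in the control and 208 at 1 h. Of 23 myoblast and muscle markers found, 10 passed those filters and 10 had a mean under 1 FPKM. In bulk RNA fewer cells of a type and less RNA per cell cannot be told apart.

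The filter on low values, a 3-library mean of 1 FPKM or more, left 10464 genes, and 10326 were kept after 84 short RNA symbols and 54 genes at 0 in a library were set apart. Differences are log2(FPKM + 1) at 1 h minus control, which understates the difference of low genes, and a gene is called higher or lower where the difference is at least 2-fold on that scale. By that rule 94 genes were higher, 0.91% of those kept, and 43 were lower, 0.416%, so that 1.33% differed in either direction. These counts depend on the setting: with a pseudocount of 5 they were 57 and 19, with one of 0.1 the lower count was 99, and at a threshold of 1.5-fold 271 genes were higher and 319 lower, so the excess of higher genes turned. Most genes lay close to the control: 94.3% were within 1.5-fold, the median difference was -0.03 and 54.6% of the genes were below the control. With the pseudocount of 1, 28 genes passed 4-fold upward and 1 downward, and 11 against 0 passed 8-fold. Summed over the 94 higher genes the level was 11924 FPKM at 1 h, beside 3331 in the control and 5878 at 6 h. The 43 lower genes summed to 1558 FPKM at 1 h, beside 4270.2 in the control and 4191 at 6 h. Deposited bounds were apart for 93 of the 94 and 43 of the 43, but by bounds alone 14.9% of all genes were higher and 20.1% lower. At the edge of the threshold, Areg and Ddit4 had differences of 1.004 and 1.02 just inside it, and Apln and Smad7 0.99 and 0.99 just outside. On the lower side Dusp18 and March9 were just inside, at -1.002 and -1.01, and C77080 and Sh3bp2 just outside, at -0.99 and -0.99.

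**Figure D1:**
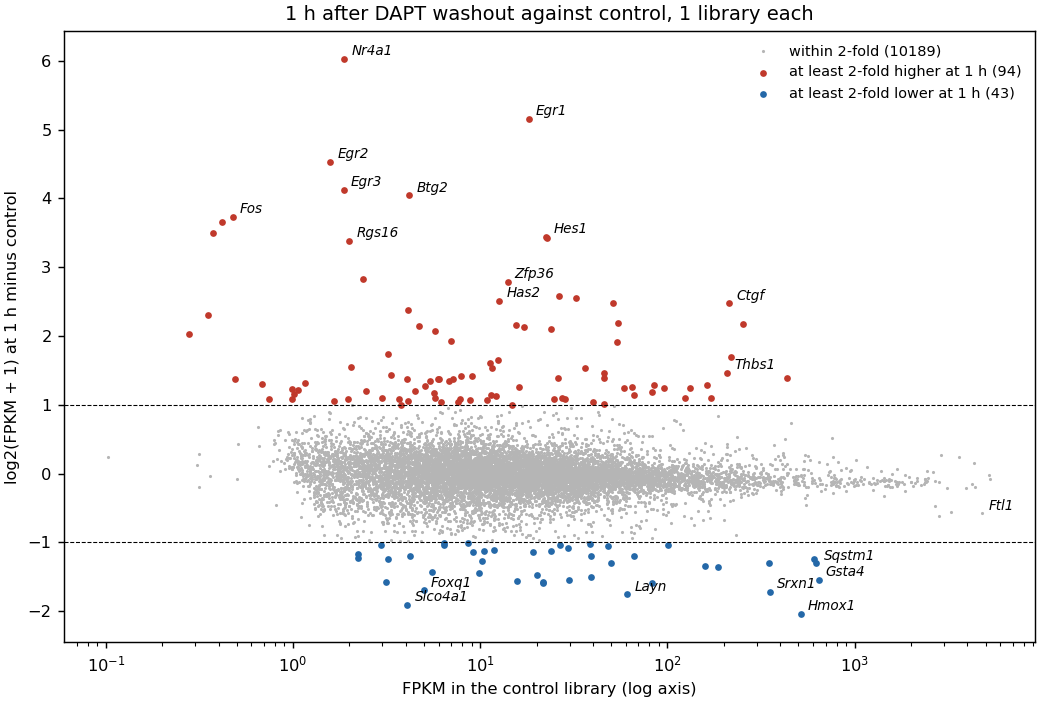
Each point is a kept gene, with its FPKM in the control library on a log axis and its log2(FPKM + 1) difference at 1 h on the vertical axis; dashed lines mark 2-fold. The 94 higher genes reach a difference of 6.02 and the 43 lower genes -2.04, while the 10189 others lie between the lines.

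Transcription factors of the early response held the top of the ranking. Of the 7 kept members of the EGR and NR4A list 5 were higher, with a list median of 4.12 beside -0.03 over all genes. Nr4a1, an orphan nuclear receptor gene, had 1.87, 186 and 8.06 FPKM in control, 1 h and 6 h, which made it the highest of the 10326 genes with a difference of 6.02 and a ratio of 99.3 (interval 79.5 to 124). Its locus is chromosome 15, 101097277 to 101105225 (mm9). Egr1, a zinc finger factor gene, had 18.1 FPKM in the control against 681 at 1 h and 14.9 at 6 h, next in rank and one of the 10 largest gains in FPKM. Its relative Egr2 had 58.8 FPKM at 1 h beside 1.58 in the control and 4.28 at 6 h. Egr3 had 1.87, 49.05 and 2.50 FPKM in control, 1 h and 6 h. At 6 h these EGR genes stood far below their 1 h levels, though Nr4a1 and Egr2 were still past 2-fold. Nr4a2 was higher by less, with 4.49 FPKM in the control against 11.6 at 1 h and 6.46 at 6 h, a ratio of 2.58 (interval 2.24 to 2.97). The corepressor genes Nab1 and Nab2, whose products bind EGR proteins, had differences of -0.33 and -0.16.

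Within the AP-1 and ATF list 5 of 15 members were higher and 0 lower. Fos, the founding FOS gene, had 18.6 FPKM at 1 h beside 0.475 in the control and 0.837 at 6 h, the largest difference of the list at 3.73. Fosb, an AP-1 subunit gene, had 0.415, 16.9 and 0.651 FPKM in control, 1 h and 6 h, and Atf3, a stress-responsive repressor gene, 0.375 FPKM in the control against 14.6 at 1 h and 0.347 at 6 h. Junb had 254 FPKM at 1 h beside 54.7 in the control and 82.02 at 6 h, 4.64-fold higher at 1 h (interval 4.37 to 4.93), and Jun 58.95, 142 and 41.3 FPKM in control, 1 h and 6 h. The other 2 FOS genes were near the control: Fosl1 had 106 FPKM in the control against 112 at 1 h and 99.6 at 6 h and Fosl2 48.3 FPKM at 1 h beside 47.4 in the control and 35.6 at 6 h. Krueppel-like factors, zinc finger regulators of growth and vessel genes, had 4 of 11 members higher and a median of 0.69. Klf2 had 4.12, 25.6 and 3.52 FPKM in control, 1 h and 6 h, and Klf6 36.3 FPKM in the control against 107 at 1 h and 39.4 at 6 h. Klf4 had 24.02 FPKM at 1 h beside 10.9 in the control and 6.46 at 6 h, while Klf5 was below the control at 53.2, 39.4 and 41.1 FPKM in control, 1 h and 6 h.

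Early response genes outside the factor families had 14 of 30 members higher, 46.7% beside 0.91% of all genes, and 0 lower. This list, like the others, was chosen with earlier results of these data known. Ier2, a nuclear early response gene, had 32.6 FPKM in the control against 197 at 1 h and 40.7 at 6 h, 6.03-fold at 1 h (interval 5.52 to 6.58), and Csrnp1 24.2 FPKM at 1 h beside 4.69 in the control and 4.49 at 6 h. The small GTPase gene Rhob had 53.4, 204 and 42.1 FPKM in control, 1 h and 6 h. The polo-like kinase gene Plk2 had 46.1 FPKM in the control against 122 at 1 h and 30.9 at 6 h, and Plk3 25.9 FPKM at 1 h beside 9.02 in the control and 12.02 at 6 h. Ppp1r15a, whose product helps restart translation by directing a phosphatase to eIF2alpha, had 11.3, 36.5 and 14.5 FPKM in control, 1 h and 6 h. Cited2, a CBP/p300-binding regulator gene, had 132 FPKM in the control against 315 at 1 h and 69.9 at 6 h, so its 6 h value lay below the control. Members lay on both sides of the control: Gadd45g had 364 FPKM at 1 h beside 170.2 in the control and 162 at 6 h, but its paralog Gadd45b had 28.04, 14.4 and 23.3 FPKM in control, 1 h and 6 h and Gadd45a 14.2 FPKM in the control against 11.03 at 1 h and 7.71 at 6 h. All 14 higher members were within 2-fold of the control at 6 h. They were picked by their 1 h level, and no such share over all genes is given.

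**Figure D2:**
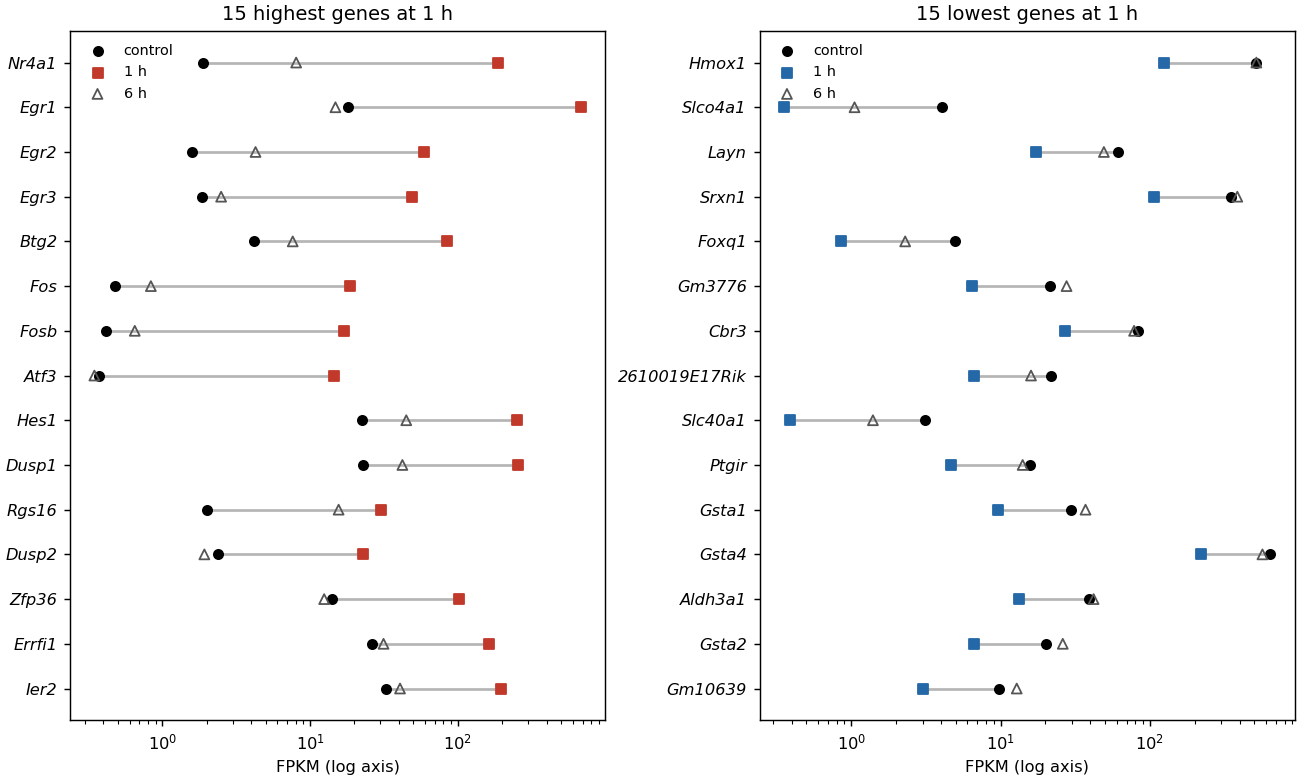
FPKM on a log axis by library (control, 1 h, 6 h) for the 15 highest and the 15 lowest genes by difference at 1 h, with a grey line joining the control and 1 h values. Every 6 h point of the higher genes lies below its 1 h point, and every 6 h point of the lower genes lies above it.

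Genes that damp kinase signalling were next. Of 11 MAP kinase phosphatase genes 5 were higher, and the list median was 0.63. Dusp1, which acts on p38, JNK and ERK, had 254 FPKM at 1 h beside 22.8 in the control and 42.2 at 6 h, and Dusp2, a nuclear phosphatase gene, 2.38, 22.99 and 1.93 FPKM in control, 1 h and 6 h. The nuclear ERK phosphatase gene Dusp5 had 17.2 FPKM in the control against 78.4 at 1 h and 68.98 at 6 h, and the cytoplasmic Dusp6 41.2 FPKM at 1 h beside 12.5 in the control and 27.1 at 6 h. At 6 h Dusp1 and Dusp2 were within 2-fold of the control, whereas Dusp5 and Dusp6 were still past it. Dusp4 had 48.2, 52.6 and 44.2 FPKM in control, 1 h and 6 h and Dusp7 14.6 FPKM in the control against 9.40 at 1 h and 18.9 at 6 h, so the family was not uniform. Errfi1, which encodes an inhibitor of the EGF receptor, had 163 FPKM at 1 h beside 26.5 in the control and 31.4 at 6 h, 6.14-fold at 1 h (interval 5.75 to 6.56). Spry2, an inhibitor of receptor tyrosine kinase signalling, had 15.5, 72.6 and 25.7 FPKM in control, 1 h and 6 h. Spry4 was short of 2-fold on the scale, with 6.13 FPKM in the control against 12.3 at 1 h and 17.2 at 6 h. The Spred genes stayed near the control, with differences of -0.14 for Spred1, 0.01 for Spred2 and 0.01 for Spred3. Rgs16, whose product speeds the switching off of G proteins, had 30.3 FPKM at 1 h beside 1.997 in the control and 15.6 at 6 h, and the other 4 kept RGS genes were between -0.04 (Rgs10) and 0.50 (Rgs3).

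Messenger RNA decay factors had 3 of 20 members higher. Btg2, which links deadenylases to mRNA, had 4.18, 84.5 and 7.64 FPKM in control, 1 h and 6 h, a ratio of 20.2 (interval 17.4 to 23.5). Zfp36, also called tristetraprolin and known to destabilise mRNAs with AU-rich elements, had 13.99 FPKM in the control against 103 at 1 h and 12.5 at 6 h. Its paralogs differed in level and size: Zfp36l1 had 18.9 FPKM at 1 h beside 6.84 in the control and 7.22 at 6 h and Zfp36l2 158, 196 and 179 FPKM in control, 1 h and 6 h. The CCR4-NOT subunit genes Cnot1, Cnot2 and Cnot3 had differences of 0.04, 0.12 and -0.20, and Tob2, an adaptor gene of the same complex, had 39.5 FPKM in the control against 21.4 at 1 h and 40.7 at 6 h. Among 16 NF-kB subunits and inhibitors only Nfkbiz was past 2-fold, at 6.997 FPKM at 1 h beside 2.47 in the control and 2.46 at 6 h.

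Reference promoters of 4 of these genes are printed to show matches to some of the short motifs searched. Each runs from 250 bases before to 50 bases after the start site, 5′ to 3′ on the gene's strand, from RefSeq on GRCm38.p6, with matches in capitals. In Nr4a1 (chr15:101266596-101266895, plus strand) the capitals mark a TEAD site and an EGR site, in Zfp36 (chr7:28379179-28379478, minus strand) an EGR site and then a CArG box, the motif SRF binds. In Dusp5 (chr19:53528895-53529194, plus strand) they mark an NF-kB site running into 2 adjoining CArG boxes, and in Dusp1 (chr17:26508423-26508722, minus strand) a CRE, the motif of CREB and ATF factors, and then an E-box.
Nr4a1: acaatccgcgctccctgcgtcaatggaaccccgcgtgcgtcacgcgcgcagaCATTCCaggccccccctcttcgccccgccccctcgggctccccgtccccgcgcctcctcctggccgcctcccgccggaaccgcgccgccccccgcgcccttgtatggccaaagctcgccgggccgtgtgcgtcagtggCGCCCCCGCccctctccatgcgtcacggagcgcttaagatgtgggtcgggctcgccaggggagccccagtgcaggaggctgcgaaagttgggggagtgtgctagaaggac
Zfp36: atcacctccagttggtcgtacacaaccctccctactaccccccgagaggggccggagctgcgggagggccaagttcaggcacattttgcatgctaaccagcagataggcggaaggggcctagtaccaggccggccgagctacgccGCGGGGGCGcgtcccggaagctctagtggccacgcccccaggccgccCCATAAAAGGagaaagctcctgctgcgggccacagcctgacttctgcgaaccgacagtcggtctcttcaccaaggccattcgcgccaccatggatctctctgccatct
Dusp5: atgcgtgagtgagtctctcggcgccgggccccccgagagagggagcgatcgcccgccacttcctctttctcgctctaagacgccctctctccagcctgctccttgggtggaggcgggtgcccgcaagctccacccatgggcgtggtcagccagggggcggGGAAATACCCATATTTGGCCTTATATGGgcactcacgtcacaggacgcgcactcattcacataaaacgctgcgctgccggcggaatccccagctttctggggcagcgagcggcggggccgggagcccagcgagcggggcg
Dusp1: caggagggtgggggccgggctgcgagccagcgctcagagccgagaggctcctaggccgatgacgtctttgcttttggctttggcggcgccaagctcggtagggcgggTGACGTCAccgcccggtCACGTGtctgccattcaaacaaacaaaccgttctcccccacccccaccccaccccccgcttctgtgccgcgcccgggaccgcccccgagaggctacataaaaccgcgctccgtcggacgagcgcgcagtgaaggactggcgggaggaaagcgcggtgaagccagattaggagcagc
The EGR site of Nr4a1 begins 60 bases before the start site, the CArG box of Zfp36 58 bases and those of Dusp5 82 and 72 bases. A match is a description of letters and not a site shown to be bound.

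Motifs were searched on both strands of the same window. Of the 38 higher genes in the EGR and NR4A, AP-1, Krueppel-like, early response, MAP kinase phosphatase, Sprouty and mRNA decay lists, 31 had a promoter in the table. A CRE (TGACGTCA) stood in 16.1% of these 31, beside 3.57% of the 8288 kept genes with a promoter. The EGR site (GCGGGGGCG) stood in 19.4% against 5.71%, the E-box (CACGTG) in 25.8% against 10.9%, a TATA box (TATAAA) in 22.6% against 6.82% and the CArG box in 6.45% against 1.42%. The CArG box share is only 2 genes, Zfp36 and Dusp5, both printed above. The RBPJ site (GTGGGAA) stood in 3.23% of the 31 and in 5.85% of all. No member of the Notch target list described below was among the 31. Hes1, Egr1, Hmox1 and Ctgf had no promoter in the table and were not searched. The AP-1 site (TGANTCA) had 3.23% against 4.43%. The TEAD site (GGAATG) had 6.45% against 11.4%, the ARE core (TGACNNNGC) 19.4% against 14.9% and the NF-kB site (GGGNNTTTCC) 3.23% against 1.60%. With 31 promoters a single gene moves a share by several percentage points, the ARE core and the CRE can overlap, and the NF-kB site of Dusp5 overlaps a CArG box. Over all 94 higher and 43 lower genes only 74.5% and 76.7% had a promoter in the table, under the minimum set for such a check, which is void there. For the 70 higher genes with a promoter the counted shares are given only as a description and are not compared with the 31. They were 8.57% for the CRE, 10.0% for the EGR site, 18.6% for the E-box, 4.29% for the CArG box and 27.1% for the TATA box.

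Ligand genes were mixed. In the EGF receptor list 2 of 7 members were higher: Hbegf, a membrane-shed ligand gene, had 25.97, 69.8 and 78.2 FPKM in control, 1 h and 6 h, and Areg, which encodes amphiregulin, 14.7 FPKM in the control against 30.5 at 1 h and 38.8 at 6 h. Both were higher still at 6 h, as was Ereg, the epiregulin gene, short of 2-fold at 1 h with 41.3 FPKM at 1 h beside 21.8 in the control and 49.02 at 6 h. The receptor gene Erbb2 had 17.4, 13.2 and 19.2 FPKM in control, 1 h and 6 h. Among other growth factors Bdnf had 7.90 FPKM in the control against 22.9 at 1 h and 6.32 at 6 h and Vegfa 82.6 FPKM at 1 h beside 39.8 in the control and 56.4 at 6 h. The platelet-derived growth factor gene Pdgfa was below the control, at 60.4, 45.8 and 62.4 FPKM in control, 1 h and 6 h. In the TGF-beta family Inhba, which encodes an activin subunit, had 66.3 FPKM in the control against 148 at 1 h and 493 at 6 h, and Bmp4 7.55 FPKM at 1 h beside 2.99 in the control and 1.20 at 6 h. Those 2 genes parted by 6 h, when Inhba was above and Bmp4 below its control level. Il6 was low in the control, at 0.487, 2.86 and 10.01 FPKM in control, 1 h and 6 h, and Cxcl1, a neutrophil attractant gene, had 24.8 FPKM in the control against 53.8 at 1 h and 21.3 at 6 h. The WNT list had 0 of 8 members past 2-fold, with Tcf7 at 5.02 FPKM at 1 h beside 9.06 in the control and 13.04 at 6 h.

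Secreted proteins of clotting, matrix and adhesion included the largest gains in FPKM. Ctgf, a matricellular CCN gene, had 213, 1189 and 451 FPKM in control, 1 h and 6 h, and its relative Cyr61 252 FPKM in the control against 1139 at 1 h and 248 at 6 h. Plau, the urokinase activator gene, had 106 FPKM at 1 h beside 24.02 in the control and 30.3 at 6 h. Its partners were near the control: the urokinase receptor gene Plaur had 148, 138 and 185 FPKM in control, 1 h and 6 h and the tissue activator gene Plat 23.7 FPKM in the control against 22.8 at 1 h and 40.3 at 6 h. Thbs1, encoding thrombospondin, had 580.2 FPKM at 1 h beside 209 in the control and 242 at 6 h, whereas its paralog Thbs2 had 36.9, 52.7 and 33.3 FPKM in control, 1 h and 6 h. Has2, a hyaluronan synthase gene, had 12.6 FPKM in the control against 76.6 at 1 h and 65.4 at 6 h, and Ptgs2, the inducible cyclooxygenase gene, 226 FPKM at 1 h beside 95.3 in the control and 163 at 6 h, while the constitutive Ptgs1 had 70.6, 61.4 and 79.99 FPKM in control, 1 h and 6 h. Adamts1, a proteoglycan-cleaving protease gene, had 6.05 FPKM in the control against 17.2 at 1 h and 4.85 at 6 h, and Adamts5 7.92 FPKM at 1 h beside 2.04 in the control and 0.705 at 6 h. In the list of CCN genes and YAP targets 3 of 15 members were higher and the median was -0.02, a sign that turned to 0.01 when the median ratio was set to 1. The third higher member, beside Ctgf and Cyr61, was Ankrd1, an ankyrin repeat gene, at 219, 713 and 157 FPKM in control, 1 h and 6 h. Members below the control included Ajuba at 50.7 FPKM in the control against 33.7 at 1 h and 42.1 at 6 h and Tead4 at 2.84 FPKM at 1 h beside 5.69 in the control and 7.09 at 6 h.

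Cytoskeletal genes that SRF controls lay slightly above the control together. Of 22 members 22 were above the control and 0 were past 2-fold, with a median of 0.16, beside 45.4% of all genes above the control. The LIM-domain gene Fhl2 had 94.8, 149.9 and 68.3 FPKM in control, 1 h and 6 h, Vcl, the vinculin gene, 109 FPKM in the control against 139 at 1 h and 115 at 6 h, and Srf itself 61.8 FPKM at 1 h beside 50.7 in the control and 49.2 at 6 h. Because of their abundance the actin genes carried a large absolute gain: Actb had 4330.5, 4835 and 4095 FPKM in control, 1 h and 6 h, and Actg1 2906 FPKM in the control against 3498 at 1 h and 2938 at 6 h. Collagen chains had 14 of 16 members above the control, a median of 0.27 and 0 past 2-fold. Col5a1 had 101 FPKM at 1 h beside 67.8 in the control and 102 at 6 h and Col1a2 412, 507 and 317 FPKM in control, 1 h and 6 h.

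Notch target genes apart from Hes1 were within 2-fold of the control at 1 h. Hes1, the HES-family repressor gene that Notch controls directly, had 22.5 FPKM in the control against 254 at 1 h and 44.8 at 6 h, with a difference of 3.44. It was the 1 of 12 kept targets past 2-fold. Cdkn1a, a cell cycle inhibitor gene that Notch can control, had 188 FPKM at 1 h beside 111 in the control and 141 at 6 h, and Gata2 19.4, 12.1 and 19.02 FPKM in control, 1 h and 6 h. Efnb2, an ephrin ligand gene, had 15.6 FPKM in the control against 26.6 at 1 h and 21.7 at 6 h, and Snai2, a zinc finger repressor gene, 19.6 FPKM at 1 h beside 12.2 in the control and 8.87 at 6 h. Deposited bounds were apart upward for 7 of the 12 and downward for 1, Gata2, beside 14.9% and 20.1% of all genes. The HEY family gene Hey1 had 1.87, 3.52 and 23.9 FPKM in control, 1 h and 6 h, Heyl 0.316 FPKM in the control against 0.603 at 1 h and 15.5 at 6 h and the feedback gene Nrarp 0.336 FPKM at 1 h beside 0.362 in the control and 15.1 at 6 h, so their high values were in the 6 h library. Of 27 receptor, protease and cofactor genes 0 were past 2-fold and the median was -0.04. Gamma-secretase subunit genes were close to the control: Ncstn differed by -0.04, Psenen by -0.12 and Aph1a by -0.16. RBPJ's gene Rbpj had 21.7, 22.1 and 15.4 FPKM in control, 1 h and 6 h. The coactivator gene Maml2 had 2.08 FPKM in the control against 4.04 at 1 h and 1.41 at 6 h and the corepressor gene Spen 10.1 FPKM at 1 h beside 16.02 in the control and 13.8 at 6 h. Notch1 had 3.65, 4.32 and 6.01 FPKM in control, 1 h and 6 h, a level to which the human transgene may add through cross-alignment.

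Other developmental regulators split. Id1, an inhibitor of bHLH factors, had 124 FPKM in the control against 266 at 1 h and 141 at 6 h, with Id2 at 44.9 FPKM at 1 h beside 24.4 in the control and 12.5 at 6 h and Id3 at 186, 334 and 200.1 FPKM in control, 1 h and 6 h. Smad7, a feedback inhibitor of TGF-beta signalling, had 16.7 FPKM in the control against 34.02 at 1 h and 24.5 at 6 h. Myf5, a muscle determination factor gene, was the 1 of 6 kept myogenic factors past 2-fold, with 26.4 FPKM at 1 h beside 11.4 in the control and 8.51 at 6 h, and Mef2a and Mef2d had differences of 0.23 and -0.08. Foxq1, a forkhead factor gene, was among the lowest genes, at 4.98, 0.851 and 2.30 FPKM in control, 1 h and 6 h, 5.86-fold lower at 1 h (interval 4.26 to 8.04). Mnt, a MAX partner that opposes MYC, had 3.68 FPKM in the control against 8.95 at 1 h and 3.87 at 6 h. Myc itself was just short of 2-fold, with a difference of 0.98. It had 103 FPKM at 1 h beside 51.8 in the control and 57.7 at 6 h.

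Clock, hormone and stress lists each held a few high members. In the clock list 3 of 14 were higher, with Per1, a period gene, at 15.3 FPKM at 1 h beside 5.42 in the control and 5.43 at 6 h, and Nr1d1, which encodes the repressor REV-ERBalpha, at 12.1, 27.5 and 11.1 FPKM in control, 1 h and 6 h. Bhlhe40, a bHLH repressor gene, had 11.5 FPKM in the control against 35.1 at 1 h and 19.6 at 6 h. The activator genes were within 2-fold, with Arntl, the BMAL1 gene, at 1.67 FPKM at 1 h beside 2.97 in the control and 4.27 at 6 h and its partner Clock at 13.3, 12.3 and 13.02 FPKM in control, 1 h and 6 h. Among the other repressor genes Cry1 was below the control, at 9.88 FPKM in the control against 5.96 at 1 h and 11.96 at 6 h, whereas Per2 and Cry2 were above it, with differences of 0.46 and 0.46. Sgk1, a serum- and glucocorticoid-regulated kinase gene, had 290.1 FPKM at 1 h beside 51.1 in the control and 48.1 at 6 h, and Tsc22d3, also called GILZ, 5.75, 13.5 and 4.75 FPKM in control, 1 h and 6 h. Fkbp5, another glucocorticoid-responsive gene, had 14.8 FPKM in the control against 16.4 at 1 h and 16.3 at 6 h. In the ATF4 and unfolded protein list 3 of 18 were higher, namely Chac1, a glutathione-degrading enzyme gene, at 13.1 FPKM at 1 h beside 3.23 in the control and 2.64 at 6 h, Trib3 at 0.994, 3.21 and 0.737 FPKM in control, 1 h and 6 h and Ddit4 at 46.1 FPKM in the control against 94.4 at 1 h and 75.1 at 6 h. Atf4 itself had 227 FPKM at 1 h beside 171 in the control and 168 at 6 h, and the chaperone gene Hspa5 283, 343 and 342 FPKM in control, 1 h and 6 h. Heat shock genes had 0 of 17 past 2-fold, with 7 above the control and 10 below. Dnajb4 had 57.4 FPKM at 1 h beside 32.4 in the control and 46.1 at 6 h. Hspa1b had 56.4 FPKM in the control against 36.2 at 1 h and 35.2 at 6 h.

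**Figure D3:**
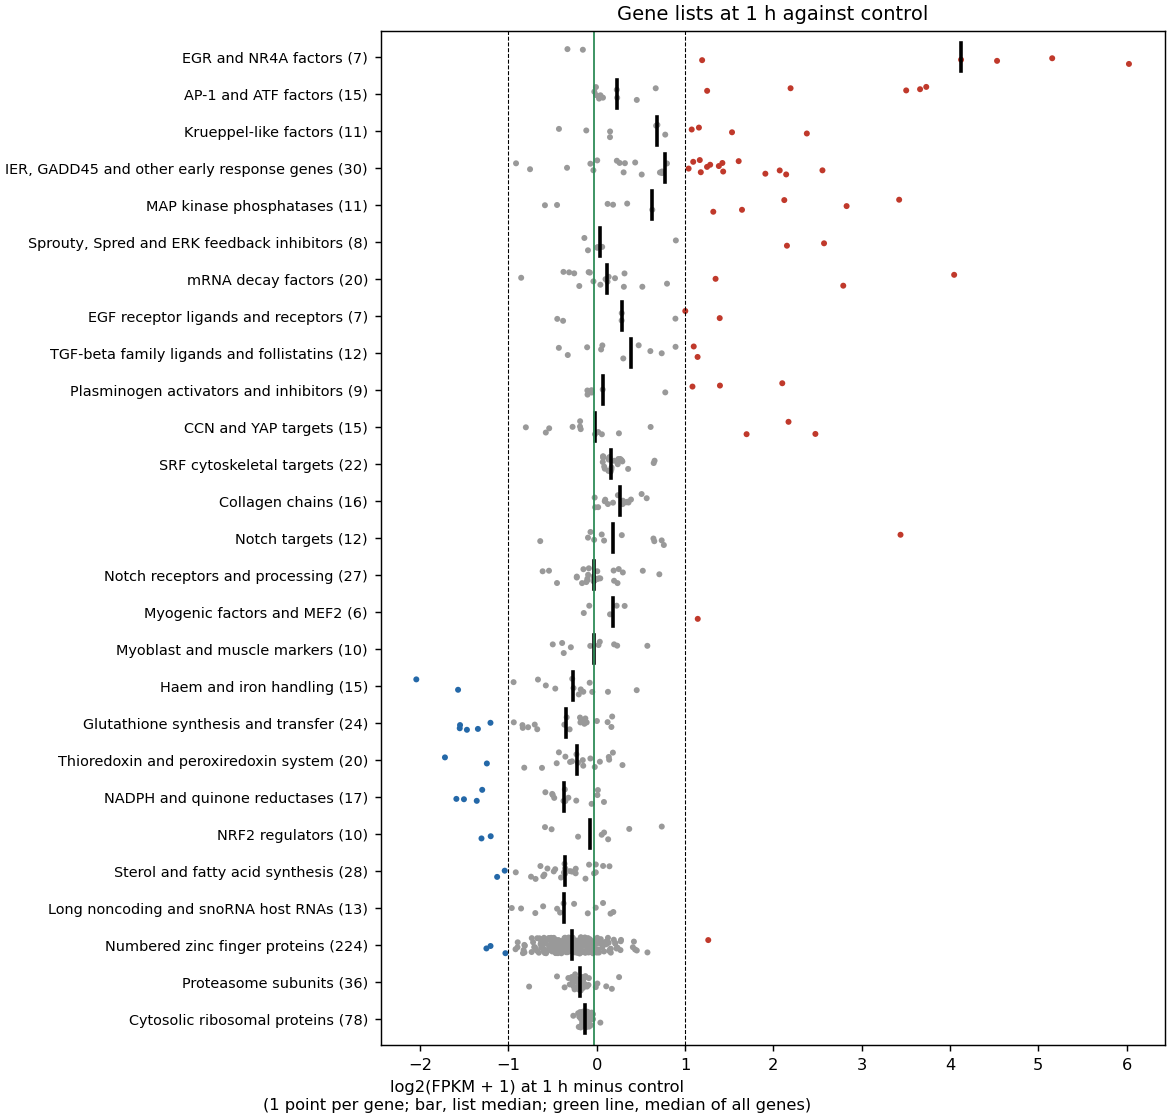
Differences at 1 h for the kept members of 27 gene lists, 1 point per gene, with the number kept in brackets; red and blue points are past 2-fold upward and downward, black bars are list medians and the green line is the median of all genes. The EGR and NR4A median is 4.12, the 22 SRF targets all lie above 0, and the lower points gather in the haem, glutathione, thioredoxin and NADPH lists.

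The lower genes were led by NRF2-linked metabolism. Over the 5 lists of that kind 15 of 86 kept genes were lower, 17.4% beside 0.416% of all genes, and 0 were higher, with a median of -0.30. These lists were chosen with earlier results of these data known. At 6 h all 15 lower genes were within 2-fold of the control, but they were picked by their 1 h level. No such share over all genes is given. Hmox1, the haem oxygenase gene, had the lowest log2 difference of all kept genes, with 124 FPKM at 1 h beside 515 in the control and 518 at 6 h, 4.14-fold lower at 1 h (interval 3.95 to 4.34). Slc40a1, which encodes the iron exporter ferroportin, had 3.12, 0.390 and 1.40 FPKM in control, 1 h and 6 h. The ferritin genes, whose products store iron, were among the 10 largest losses in FPKM: Ftl1 had 4772 FPKM in the control against 3204 at 1 h and 3522 at 6 h, and Fth1 1949 FPKM at 1 h beside 2696 in the control and 2234 at 6 h. Tfrc, the iron importer gene, was above the control at 29.9, 41.3 and 28.2 FPKM in control, 1 h and 6 h. Blvrb, a biliverdin reductase gene, had 64.6 FPKM in the control against 33.2 at 1 h and 60.7 at 6 h.

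Glutathione genes had 5 of 24 members lower and a median of -0.35. Gclc, the catalytic subunit of the enzyme that begins glutathione synthesis, had 28.1 FPKM at 1 h beside 66.002 in the control and 60.2 at 6 h, and its modifier Gclm 159, 62.1 and 136 FPKM in control, 1 h and 6 h. Gsta4, a glutathione transferase gene, had 642 FPKM in the control against 219 at 1 h and 569 at 6 h. Gsta1 had 9.56 FPKM at 1 h beside 29.9 in the control and 37.1 at 6 h and Gsta2 20.1, 6.63 and 26.1 FPKM in control, 1 h and 6 h, near-identical copies like Gm3776 and Gm10639, whose share of fragments is uncertain. Gsr, glutathione reductase, had 83.02 FPKM in the control against 42.9 at 1 h and 68.1 at 6 h, Slc7a11, the cystine importer gene, 8.28 FPKM at 1 h beside 15.6 in the control and 21.1 at 6 h and Abcc1, an exporter of glutathione conjugates, 63.6, 36.7 and 59.8 FPKM in control, 1 h and 6 h. Members not tied to the lower group included Gpx8, at 141 FPKM in the control against 142 at 1 h and 159 at 6 h, and Gpx4, at 328 FPKM at 1 h beside 359 in the control and 314 at 6 h.

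In the thioredoxin list 2 of 20 members were lower. Srxn1, sulfiredoxin, had 352, 106 and 386 FPKM in control, 1 h and 6 h, and Txnrd1, the cytosolic thioredoxin reductase gene, 608 FPKM in the control against 256 at 1 h and 830.2 at 6 h. The peroxiredoxin genes were less far from the control, with Prdx1 at 327 FPKM at 1 h beside 403 in the control and 465 at 6 h and Prdx6 at 122, 79.2 and 115 FPKM in control, 1 h and 6 h, and the mitochondrial Prdx3 was above it, at 44.2 FPKM in the control against 50.4 at 1 h and 48.6 at 6 h. Of 17 NADPH and quinone reductase genes 4 were lower: Cbr3, a carbonyl reductase gene, at 26.9 FPKM at 1 h beside 82.9 in the control and 78.5 at 6 h, Aldh3a1 at 39.2, 13.2 and 42.02 FPKM in control, 1 h and 6 h, Nqo1 at 186 FPKM in the control against 72.05 at 1 h and 255 at 6 h and Pgd, of the pentose phosphate pathway, at 141 FPKM at 1 h beside 347 in the control and 295 at 6 h. The other pentose phosphate genes were below the control too, G6pdx at 94.4, 62.8 and 86.8 FPKM in control, 1 h and 6 h, Taldo1 at 153 FPKM in the control against 118 at 1 h and 162 at 6 h and Tkt at 38.9 FPKM at 1 h beside 55.5 in the control and 52.5 at 6 h. In the list named NRF2 regulators, 5 of 10 kept members were above the control and 5 below. Nfe2l2 had 39.3, 40.9 and 49.5 FPKM in control, 1 h and 6 h, and Keap1 23.1 FPKM in the control against 15.1 at 1 h and 18.9 at 6 h. Bach1 had 9.10 FPKM at 1 h beside 6.82 in the control and 7.74 at 6 h. Sqstm1, the autophagy receptor p62 that binds KEAP1, had 252 FPKM at 1 h beside 624 in the control and 457 at 6 h, and Osgin1 38.8, 16.4 and 35.1 FPKM in control, 1 h and 6 h. The small MAF genes lay on opposite sides of the control, Mafk at 28.4 FPKM at 1 h beside 16.6 and Mafg at 30.6 beside 43.98.

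Promoters of 2 of these genes are printed from the same table to show an AP-1 site and an ARE core, the motif of NRF2 with a small MAF partner. In Srxn1 (chr2:152105274-152105573, plus strand) the capitals mark 2 AP-1 sites, 102 and 45 bases before the start site. Srxn1 also holds an ARE core on the opposite strand, 28 bases after the start site, which is not in capitals. In Gclm (chr3:122245307-122245606, plus strand) the capitals mark an ARE core on the opposite strand, 134 bases before the start site.
Srxn1: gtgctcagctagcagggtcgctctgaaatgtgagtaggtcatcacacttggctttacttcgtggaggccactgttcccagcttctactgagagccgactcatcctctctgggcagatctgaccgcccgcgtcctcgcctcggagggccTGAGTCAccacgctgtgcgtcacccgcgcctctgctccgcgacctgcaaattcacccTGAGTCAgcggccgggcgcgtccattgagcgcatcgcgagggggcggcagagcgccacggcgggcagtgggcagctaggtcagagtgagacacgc
Gclm: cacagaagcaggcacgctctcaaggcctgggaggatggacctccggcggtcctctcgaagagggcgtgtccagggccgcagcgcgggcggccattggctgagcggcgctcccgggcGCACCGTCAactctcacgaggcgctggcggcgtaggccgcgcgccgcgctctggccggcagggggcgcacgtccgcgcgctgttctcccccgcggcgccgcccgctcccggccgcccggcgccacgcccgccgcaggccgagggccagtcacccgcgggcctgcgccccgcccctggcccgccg
Of the 15 lower NRF2-linked genes only 10, 66.7%, had a promoter in the table, so no share is given for them. As a count, the ARE core stood in 2 of the 10, the 2 printed here. It stood in 14.9% of all kept genes with a promoter.

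Sterol and fatty acid synthesis lay below the control as a block. Of 28 members 26 were below it, beside 54.6% of all genes, and 2 were past 2-fold, with a median of -0.36. Lss, lanosterol synthase, had 10.5 FPKM in the control against 4.26 at 1 h and 7.57 at 6 h, and Scd2, a fatty acid desaturase gene, 48.7 FPKM at 1 h beside 101 in the control and 79.7 at 6 h. Fdps, of the isoprenoid branch, had 71.99, 44.2 and 60.4 FPKM in control, 1 h and 6 h, short of 2-fold. Insig1, a regulator of sterol synthesis, had 18.9 FPKM in the control against 20.97 at 1 h and 16.3 at 6 h, and was above the control. Slco4a1, an organic anion transporter gene, had 0.353 FPKM at 1 h beside 4.07 in the control and 1.05 at 6 h, 11.5-fold lower at 1 h (interval 7.64 to 17.4), and it was the 1 nutrient transporter past 2-fold.

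Several large families lay slightly below the control, where 54.6% of all genes lay. Cytosolic ribosomal protein genes had 77 of 78 members below the control, a median of -0.13 and 0 past 2-fold. Proteasome subunit genes had 32 of 36 below it and a median of -0.19, with Psmd5 the lowest at 70.4, 41.04 and 63.3 FPKM in control, 1 h and 6 h. Numbered zinc finger proteins had 186 of 224 below the control and a median of -0.28. Past 2-fold, 3 were lower and 1 higher, 1.34% and 0.446% of them, beside 0.416% and 0.91% of all genes. Zfp703 was the higher one, at 16.1 FPKM in the control against 40.1 at 1 h and 41.3 at 6 h, and Zfp189 the lowest, at 0.777 FPKM at 1 h beside 3.22 in the control and 2.74 at 6 h. Long noncoding and snoRNA host RNAs had 10 of 13 below the control and a median of -0.37, with Snhg4 at 11.6, 5.48 and 10.2 FPKM in control, 1 h and 6 h and Snhg3 at 63.9 FPKM in the control against 34.9 at 1 h and 59.1 at 6 h. Mitosis and G2/M genes lay on the other side. Of 25 members 20 were above the control, beside 45.4% of all genes, with a median of 0.20 and 0 past 2-fold. Ccna2 had 117 FPKM at 1 h beside 79.5 in the control and 75.1 at 6 h. Top2a had 82.3, 120.1 and 78.9 FPKM in control, 1 h and 6 h.

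The lists held 74 of the 94 higher and 22 of the 43 lower genes. Among higher genes in no list were F3, the tissue factor gene that starts clotting, at 45.6 FPKM in the control against 128 at 1 h and 26.8 at 6 h, Edn1, the endothelin gene, at 29.1 FPKM at 1 h beside 6.95 in the control and 2.44 at 6 h, and Nedd9, a focal adhesion scaffold gene, at 7.12, 20.1 and 6.98 FPKM in control, 1 h and 6 h. Ugcg, glucosylceramide synthase, had 64.8 FPKM in the control against 157 at 1 h and 64.4 at 6 h, and Arrdc3, an arrestin-family gene, 12.2 FPKM at 1 h beside 4.09 in the control and 3.74 at 6 h. Among lower genes in no list Layn, a hyaluronan receptor gene, had 61.1, 17.4 and 49.3 FPKM in control, 1 h and 6 h, Ptgir, the prostacyclin receptor gene, 15.7 FPKM in the control against 4.66 at 1 h and 14.1 at 6 h and Cbx2, a Polycomb subunit gene, 3.65 FPKM at 1 h beside 10.2 in the control and 6.80 at 6 h. These genes outside the lists were chosen from the ranking after their values were seen. By absolute loss Prl2c3, a proliferin gene, stood next to Ftl1, with 3252, 2216 and 2475 FPKM in control, 1 h and 6 h, and Prl2c2 followed, with 2822 FPKM in the control against 1844 at 1 h and 2106 at 6 h. These are near-identical copies, and their split is uncertain. Eef1a1, an elongation factor gene, was also among the 10, at 3826 FPKM at 1 h beside 4376 in the control and 4159 at 6 h. Vim, the vimentin gene, was among the 10 largest gains, at 3625, 4287 and 3557 FPKM in control, 1 h and 6 h.

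Gene structure differed between the groups. The higher genes were short, with a median genomic span of 6.94 kb, beside 11.6 kb for the lower genes and 21.8 kb for all kept genes. Spans under 10 kb made up 60.6%, 41.9% and 26.9% of the 3 groups. The longest higher gene was Dlc1, a GTPase-activating protein gene, at 384.7 kb. Exon number ran the same way: the median was 4 exons for higher, 7 for lower and 9 for all genes. By exon number, 3.59% of genes with 1 exon were higher, 2.42% with 2 to 4, 0.923% with 5 to 9, 0.301% with 10 to 19 and 0.263% with 20 or more. The median difference of all genes also differed with span: it was -0.06 under 3 kb and 0.12 over 100 kb. The pentamer AUUUA, the core of AU-rich decay elements, was counted after the values had been seen. It had a median density of 2.46 per kb of 3′ UTR in the higher genes, 0.873 in the lower and 1.39 in all. At least 3 copies stood in 56.0% of higher, 23.8% of lower and 37.3% of all genes with a 3′ UTR of 100 bases or more. Span, exon number and UTR length go together, and their separate parts were not tested.

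**Figure D4:**
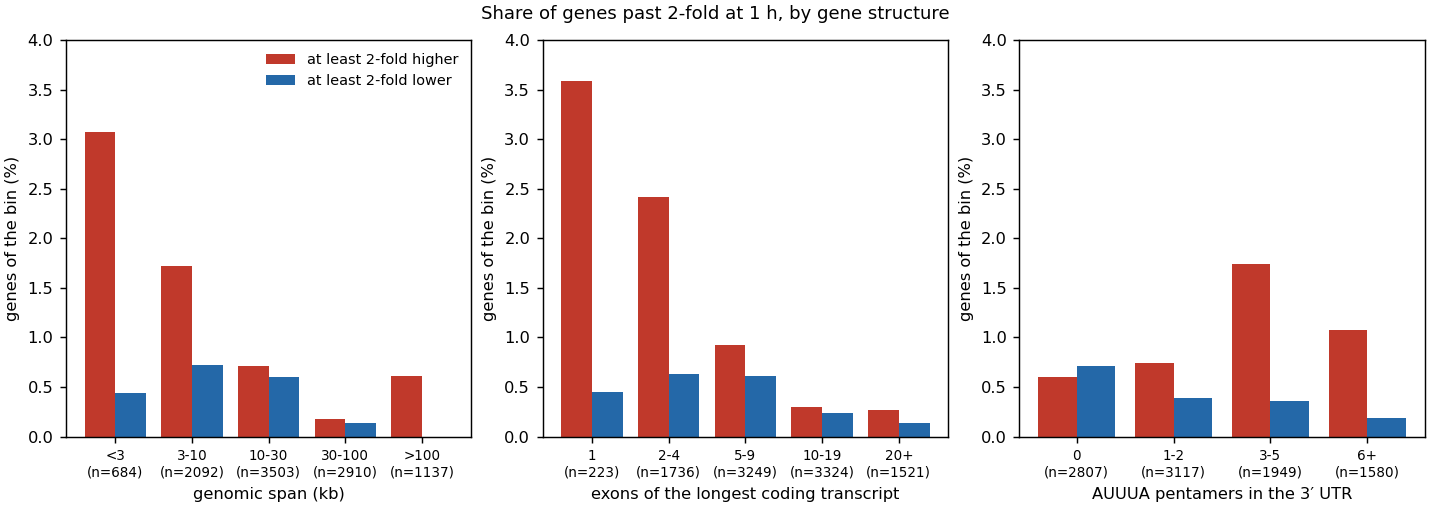
Percent of genes past 2-fold upward (red) and downward (blue) at 1 h, in bins of genomic span in kb, exon number and AUUUA count in the 3′ UTR, with the number of genes under each bin. The higher share goes from 3.07% under 3 kb to 0.172% between 30 and 100 kb and is 0.616% over 100 kb, and from 3.59% with 1 exon to 0.263% with 20 or more.

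The 6 h library shares the control with this comparison, so its values are given beside those at 1 h with no measure of overlap. The genes were picked by their 1 h difference, so 6 h levels nearer the control are partly built into the counts below. No matching share over all kept genes is given. Of the 94 higher genes, 46 had a 6 h level between control and 1 h, 40 were below the control and 8 were above their 1 h level. Inhba and Hbegf were of the last kind. Of the 43 lower genes, 32 lay between, 10 were above the control and 1, Phospho1, was below its 1 h level, with 29.3 FPKM in the control against 13.4 at 1 h and 11.02 at 6 h. Txnrd1 and Nqo1 were among those above the control at 6 h.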

How the data were processed

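RNA was column-purified, enriched with polyT and made into Illumina libraries, per the labels' protocols. The authors deposited FPKM with a lower and an upper bound per gene, and TopHat, Cufflinks, FastQC and mouse build mm9 are named in the submitters' processing notes. Their versions, settings, strand and gene models: not given in the sources used here. Since FPKM is relative to the library total, abundant genes can move all others. Between 19.9% and 21.5% of rows of at least 1 FPKM lay outside their own deposited bounds, so only the bounds' relative widths were used for intervals.

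Of 23807 rows, equal in the series and library tables, values were summed to 23298 symbols. Differences were taken on log2(FPKM + 1) with pandas 2.3.3 and numpy 2.4.6 in Python 3.11.15, and the code was tested on simulated data. Means used all 3 libraries, with a minimum of 1 FPKM. Lists (58 by symbol, 9 by symbol pattern) give counts and medians only. The members and lists were chosen with earlier results of these data known, and the short RNA pattern was corrected after values were seen. Genes named are the 15 highest and 15 lowest, the 10 largest gains and losses in FPKM, up to 6 per list, the most abundant members of a list, and others chosen for contrast after their values were seen. A few genes under this rule are not reported here. Gene spans come from the deposited mm9 loci, exons and UTRs from GENCODE vM21, promoters from RefSeq on GRCm38.p6. Exons were matched for 97.4% of kept genes. Depth came from low values clustering at multiples of 1 fragment, and 60.8% to 63.5% of those lay within 0.15 of a whole number, beside 30% for even spread, too few to recover reads, and a count test was not used.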

Additional observations from a re-analysis of the deposited data

How the results depend on the processing

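With a pseudocount of 5 the counts were 57 higher and 19 lower, and with 0.1 the lower count was 99. At 1.5-fold they were 271 and 319, so the excess turned, and at 3-fold 34 and 7. With genes at 0 and short RNA symbols kept, 87 were lower. The other settings stayed within 1.5 times of 94 and 43: no filter, a minimum mean of 5 FPKM, a mean over the control and 1 h libraries, both rescalings, the highest row per symbol, status OK rows, the library tables, genes at 0 or short RNA symbols kept singly, and bounds apart. Both rescalings gave 97 higher and 40 lower, all 94 and 40 of the 43 among them, and moved every gene by 0.03 or 0.02. With the pseudocount of 5, 57 of the 94 and 19 of the 43 were still past 2-fold, and with 0.1 all of both. The prostaglandin and hyaluronan median, 0.22, was -0.054 with no filter, and the epithelial and neural marker median, 0.17, was -0.20 when the minimum mean was 5 FPKM (2 genes). The cause was not tested. Medians near 0 also took the other sign, among them the NRF2 regulators, -0.08, which had 0.06 with no filter, and housekeeping genes, -0.01, which had 0.02 under a median ratio of 1. No paired analysis was possible because every group had 1 library, and no library could be left out. Nothing in the labels says that cultures were repeated. Depth limits the genes near 1 FPKM, where ratios have wide intervals.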

Other observations

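Genes listed at 0 in a library stand outside the comparison, because an exact 0 in such files can be a failed estimate. There were 54 of them beside the short RNA symbols. Of these, 22 were at 0 in the control and above it at 1 h, and 14 were above 0 in the control and at 0 at 1 h. The ribosomal protein genes Rps27 and Rpl26 were listed at 0 in the control, with 238 and 111 FPKM at 1 h, although such genes are used by every cell, and Rps27 was listed at 0 again at 6 h. Exosc6 and Exosc9, subunit genes of the RNA exosome, had 35.7 and 18.1 FPKM in the control, were listed at 0 at 1 h, and had 38.2 and 19.3 FPKM at 6 h. Dbp, a clock output gene, had 3.35 FPKM at 1 h and was listed at 0 in both other libraries. Of 84 short RNA symbols, which polyT enrichment does not target, 48 were listed at 0 in some library, and with those kept 21 were past 2-fold upward and 30 downward.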
